A study of Mus musculus with 16 samples.

Results

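Control neurons held in raised KCl for 3 h were compared with control neurons held in it for 1 h. Over this step of the response, transcripts induced early may decline or go on rising, and later ones may accumulate. The comparison used 4 of the 16 arrays in the study, chosen by their labels: the control shRNA arrays at 3 h of KCl (2 arrays) and the control shRNA arrays at 1 h of KCl (2 arrays). All of the neurons were cortical cells of C57BL/6 mouse embryos at day 16.5, grown in culture and infected on day 5 in vitro with lentivirus for 6 h in the presence of 6 µg/ml polybrene. One virus carried an shRNA against c-Fos, and the control virus an shRNA against firefly luciferase, a sequence these cells do not have. On day 7 the cultures were silenced, given KCl for 0, 1, 3 or 6 h and lysed, and 10 µg of labelled cDNA went onto each Affymetrix mouse genome 430 2.0 array. The control neurons therefore also carry a virus and an shRNA, and the labels do not say what share of cells was infected.

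Raised KCl depolarises neurons and opens voltage-gated calcium channels. The calcium that enters activates kinases which act on transcription factors already present, and these switch on immediate early genes such as Fos, Egr1, Npas4 and Arc without new protein synthesis. Many early genes encode transcription factors, and a later set of genes, which includes secreted proteins, channels and synaptic proteins, follows once those factors have been made. Early transcripts are typically short-lived, and early products include phosphatases and repressors that shut the signal down.

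The targeted gene was read first. Fos had intensities of 3763 and 4297 at 3 h and of 7728 and 9623 at 1 h in c-Fos shRNA neurons, against 13638 and 13308 at 3 h and 14633 and 14719 at 1 h in control neurons. Every c-Fos shRNA array lay below the control arrays of its time. Pan-neuronal markers were bright: the summed intensity of 10 such genes was 92838 and 94531 at 3 h and 91588 and 92701 at 1 h. Of 10 microglial markers 2 passed the filter on dim genes, and all 10 together summed to 401 and 404 at 3 h and to 420 and 345 at 1 h. Astrocyte markers summed to 25275 and 29323 at 3 h and to 26108 and 31214 at 1 h, so the cultures held RNA of glia as well as neurons, and 0 of the 10 passed limma's test between the times, also 0 at an unadjusted p under 0.05 (1 lower with the replicate block described next). Of 9 progenitor and dividing-cell markers Nes and Hes5 were called higher at 3 h (22.2%, against 7.33% of all tested genes). Oligodendrocyte-lineage markers summed to 10201 and 15970 at 3 h and 10554 and 16987 at 1 h, and vascular markers to 899 and 1836 at 3 h and 862 and 1817 at 1 h; replicate 2 was the higher at both times in both lists. The ratio of the 3′ to the 5′ probe set of Actb, a measure of RNA integrity, was 1.205 and 1.169 at 3 h and 1.21 and 1.202 at 1 h. Of the 10 inhibitory neuron markers 2 were higher (20%, Gad1 and Sst) and 1 lower (10%, Dlx5). Of the 9 excitatory markers 1 was higher (11.1%, Fezf2, at 1.12 ± 0.17). The pan-neuronal markers gave 2 higher (20%, Nefl and Nefm) and 1 lower (10%, Tubb3, at -0.33 ± 0.05). Over all tested genes 7.33% were higher and 13.9% lower, so the lower counts and the excitatory count lay near these shares. The part of any of these markers in the results that follow was not tested. The labels describe replicates as biological but name no separate dissection or culture, so the p-values speak only of how much these particular arrays varied, which may be technical. In these bulk cultures fewer cells of a type and less RNA per cell cannot be told apart.

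Of 13915 genes tested, 1020 (7.33%) were higher and 1928 (13.9%) were lower at 3 h than at 1 h in limma's moderated test at a Benjamini-Hochberg adjusted p under 0.05. A change of at least 2-fold was passed by 170 higher genes (1.22%) and 251 lower genes (1.8%). The replicate numbers in the labels pair the arrays, and with that pairing as a block the test called 1789 genes higher (12.9%) and 3048 lower (21.9%). Without control 3 h replicate 1 the counts were 674 higher and 1200 lower, and without control 1 h replicate 2 the lower count was 1139. Changes are given as log2 of the intensity plus 16, 3 h minus 1 h, with the standard error of the fit, a scale that understates the change of dim genes. The median change of all tested genes was -0.02.

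**Figure D1:**
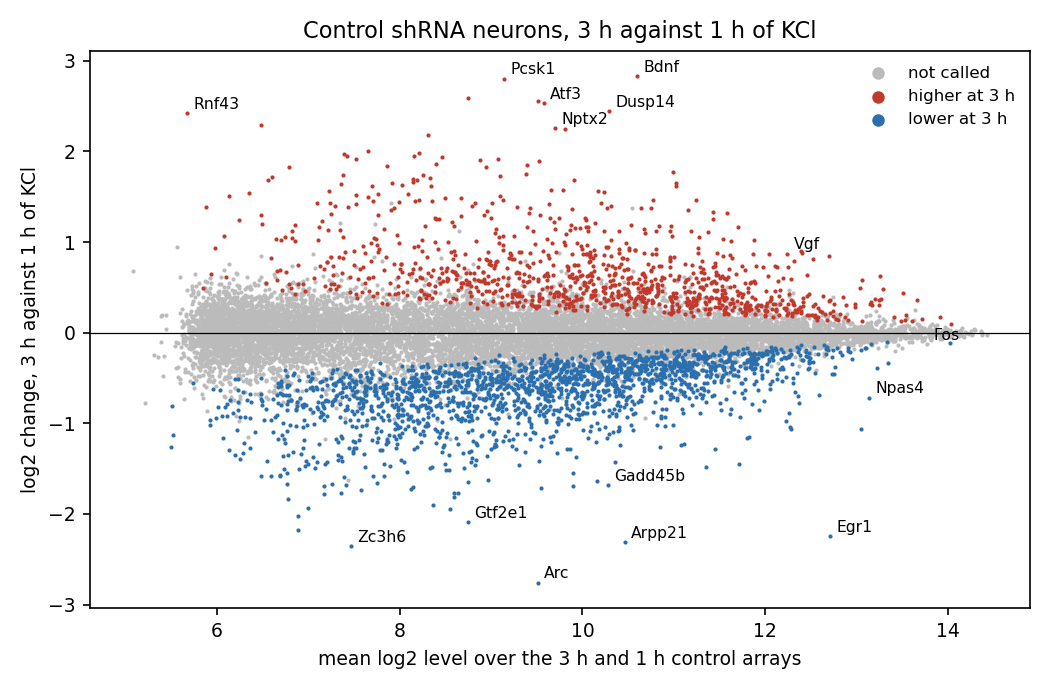
Log2 change between 3 h and 1 h of KCl in control shRNA neurons (vertical axis) against the mean log2 level over the same 4 arrays (horizontal axis), 1 point a gene. Red genes were called higher at 3 h, blue genes lower and grey genes neither. Bdnf and Pcsk1 lie highest and Arc lowest, and Fos, near the right edge, lies close to 0.

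The largest rises included genes for secreted signals and for a protein that processes them. Bdnf, a neurotrophin that acts on synapses, had intensities of 3913 and 4428 at 3 h, against 568 and 635 at 1 h. Its change of 2.83 ± 0.23 (adjusted p 5.71e-06, limma) is a 7.12-fold rise, and the 3 h arrays lay far above the 1 h arrays. Pcsk1, the convertase that cuts neuropeptide and neurotrophin precursors, had 1469 and 1487 at 3 h, against 210 and 201 at 1 h (2.80 ± 0.15, adjusted p 7.82e-07). The replicates of Pcsk1 were close to each other at both times. Nptx2, a secreted pentraxin that gathers AMPA receptors at synapses, had 1716 and 1926 at 3 h, against 353 and 417 at 1 h (2.26 ± 0.18, adjusted p 4.98e-06). Prok2, a secreted prokineticin, had 538 and 581 at 3 h, against 134 and 138 at 1 h (1.98 ± 0.17).

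Intracellular regulators and enzymes were also among the largest rises. Atf3, a bZIP transcription factor of the stress response, had 1979 and 1686 at 3 h, against 310 and 318 at 1 h (2.53 ± 0.19, adjusted p 3.76e-06). Dusp14, a dual-specificity phosphatase, had 2988 and 2915 at 3 h, against 510 and 597 at 1 h (2.45 ± 0.17). Chac1, an enzyme that degrades glutathione and a known target of the integrated stress response, had 2176 and 1414 at 3 h, against 211 and 412 at 1 h (2.56 ± 0.37, adjusted p 0.00034). The 2 replicates of Chac1 differed more than those of the genes above, but the 3 h arrays did not overlap the 1 h arrays. Gch1, the first enzyme of tetrahydrobiopterin synthesis, had 309 and 314 at 3 h, against 74.5 and 62.4 at 1 h (1.97 ± 0.13).

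Several of the large rises started from dim levels; the filter used the mean over all 16 arrays, so such genes could pass through the times at which they were high. Rnf43, a membrane ubiquitin ligase that lowers Wnt receptors, had 98.7 and 106.5 at 3 h, against 4.35 and 7.54 at 1 h (2.43 ± 0.33, adjusted p 0.000244). Serpinb2, a plasminogen activator inhibitor, had 116 and 275 at 3 h, against 24.7 and 23.6 at 1 h (2.29 ± 0.35, adjusted p 0.000536). In both genes the 1 h arrays were among the dim values, and in Serpinb2 the 2 arrays at 3 h lay apart from each other. Emp1, an epithelial membrane protein, had 421 and 346 at 3 h, against 90.6 and 79.9 at 1 h (2.01 ± 0.21, adjusted p 3.44e-05); its other probe set, dim throughout, had a change of 0.05. The remaining 4 of the 15 largest rises were C2cd4b, the potassium channel gene Kcna1, the P4-type ATPase gene Atp10d and Tnfrsf12a, the receptor for the cytokine TWEAK. Atp10d had 661 and 631 at 3 h, against 126 and 146 at 1 h (2.18 ± 0.10, adjusted p 1.96e-07). C2cd4b had 1073 and 990 at 3 h, against 151 and 179 at 1 h, and Tnfrsf12a had 613 and 461 at 3 h, against 165 and 104 at 1 h.

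The falls had another make-up. Arc, the immediate early gene whose protein drives AMPA receptor endocytosis, had 257 and 263 at 3 h, against 1816 and 2069 at 1 h, the largest called fall with arrays that do not overlap (-2.76 ± 0.18, adjusted p 2.11e-06). Egr1, a zinc-finger transcription factor, had 3374 and 2861 at 3 h, against 14685 and 14656 at 1 h (-2.24 ± 0.20, adjusted p 1.17e-05). Both had risen steeply by 1 h, as the time courses show. The other 13 of the 15 largest falls were not early genes by the definition used below. They included Gtf2e1, a subunit of the general transcription factor TFIIE, with 165 and 220 at 3 h, against 814 and 1031 at 1 h (-2.09 ± 0.14, adjusted p 2.2e-06). Zc3h6, a CCCH zinc-finger gene, had 64.6 and 61.6 at 3 h, against 406 and 402 at 1 h. Trmt1l, a relative of a tRNA methyltransferase gene, had 190 and 161 at 3 h, against 820 and 710 at 1 h (-1.94 ± 0.13). Zdhhc6, a palmitoyltransferase, had 146 and 242 at 3 h, against 659 and 852 at 1 h (-1.81 ± 0.20, adjusted p 4.19e-05).

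**Figure D2:**
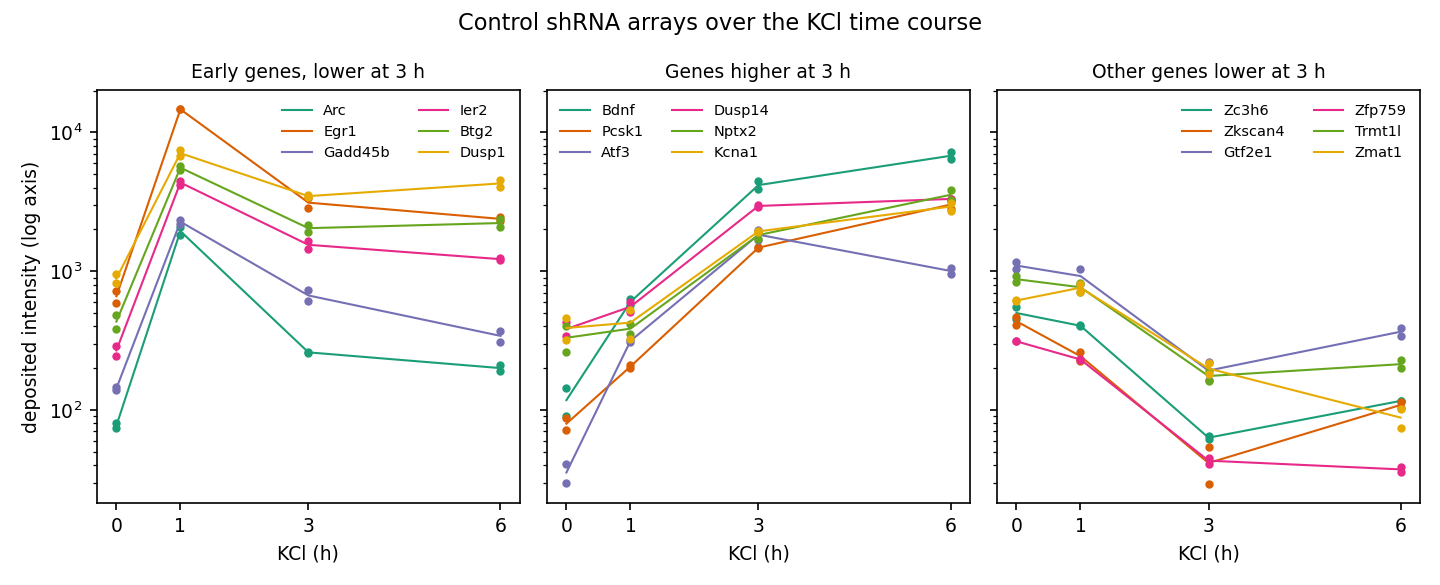
Deposited intensity (log axis) of single genes in control shRNA neurons after 0, 1, 3 and 6 h of KCl; points are arrays and lines join the group means. In the left panel early genes are high at 1 h and lower at 3 h, and in the middle panel genes climb between 1 and 3 h. In the right panel other genes are lower at 3 h than at 1 h. Zfp759 and Gtf2e1 among them were already below their 0 h level at 1 h.

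Early genes were defined in c-Fos shRNA arrays only, so that no array was shared with the comparison: they were the 87 genes, Fos left out, called at least 2-fold higher at 1 h than at 0 h there, as 0.632% of all tested genes were. Between 1 and 3 h in control neurons they split in both directions. Of the 87, 28 were called lower (32.2%, against 13.9% of all tested genes), 30 higher (34.5%, against 7.33%) and 29 neither, and their median change was 0.20. At 2-fold or more, 12 were lower and 13 higher. All arrays were fitted in one model with one spread for each gene, and genes of low spread pass either test more readily. The shares of all tested genes are therefore not a like background for genes chosen by such a test. The early genes that fell included genes for transcription factors and regulators of growth and mRNA decay, such as Egr1, Egr2, Egr4, Ier2, Fosb, Nr4a1, Gadd45b, Btg2 and Tob1. Those that rose included Bdnf, Pcsk1, Atf3, Crem, Itprip, Sertad1 and the receptor genes Ptger4 and Sstr2.

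**Figure D3:**
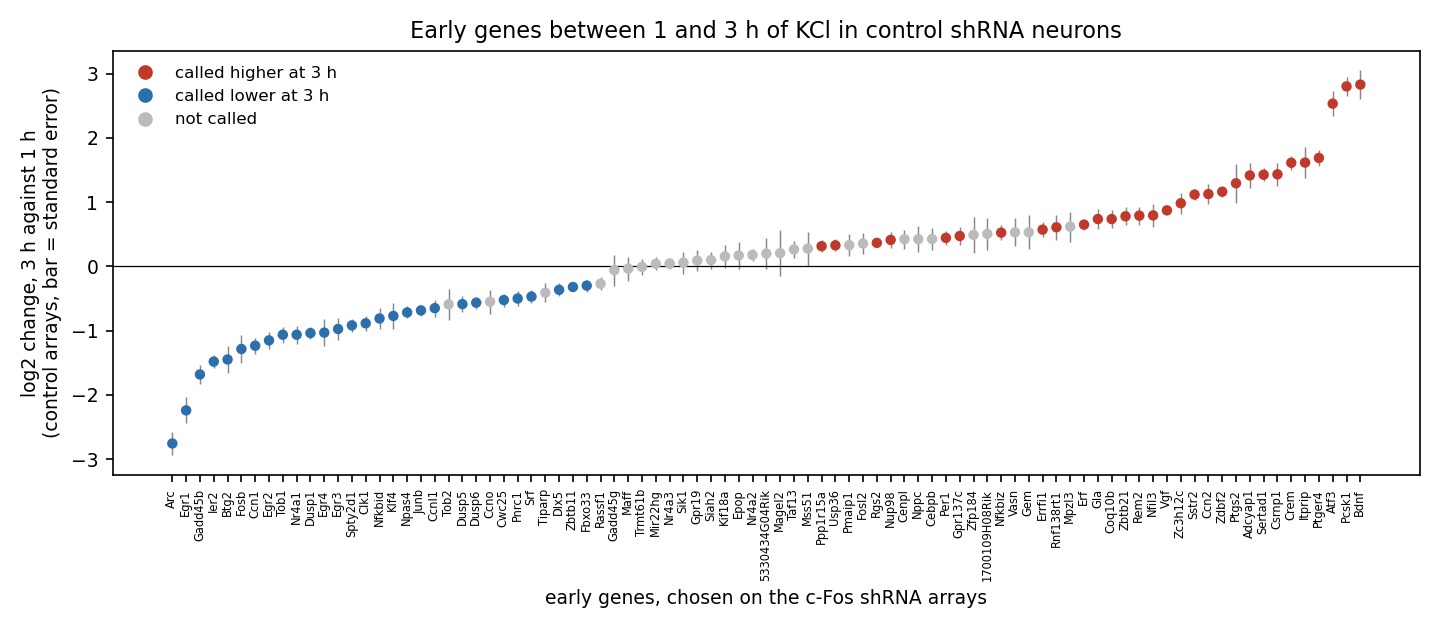
Log2 change between 3 h and 1 h in control shRNA neurons for 87 early genes chosen on the c-Fos shRNA arrays, in order of size; bars are standard errors of the fit and colours mark genes called higher, lower or not called. The genes run from Arc at -2.76 to Bdnf at 2.83.

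Within the AP-1 and inducible bZIP factors, 4 of 16 tested members were higher (25%) and 3 lower (18.8%). Over all tested genes 7.33% were higher and 13.9% lower, the background for this and each list count below. Fos itself was not called (-0.13 ± 0.10, adjusted p 0.483), with 3 h arrays a little under the 1 h arrays. Fosb, its paralogue, had 1764 and 1798 at 3 h, against 4690 and 4046 at 1 h (-1.28 ± 0.22, adjusted p 0.00099). Junb, a partner of Fos proteins, had 5158 and 4621 at 3 h, against 8028 and 7589 at 1 h (-0.68 ± 0.08). Jun had 2128 and 2472 at 3 h, against 3980 and 4608 at 1 h (-0.90 ± 0.16). All 3 fallers kept their 3 h arrays below their 1 h arrays. Crem, whose products include an early repressor of cAMP-driven transcription, had 3486 and 3804 at 3 h, against 1326 and 1133 at 1 h (1.61 ± 0.11, adjusted p 2.11e-06). Nfil3 and Jdp2, both of which can repress transcription, rose by 0.80 ± 0.19 and 0.38 ± 0.11. Fosl2 had a change of 0.36 ± 0.16 (adjusted p 0.152), and Maff one of -0.03 ± 0.19, so neither passed.

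Among 20 early zinc-finger, nuclear receptor and bHLH factors, 10 were lower and 2 higher, with a median of -0.47. All 4 Egr genes fell, including Egr2, with 2589 and 2322 at 3 h, against 5432 and 5432 at 1 h (-1.15 ± 0.14). Npas4, the neuron-specific bHLH-PAS factor, had 7199 and 6987 at 3 h, against 11681 and 11343 at 1 h (-0.72 ± 0.09, adjusted p 0.000162). Of the Nr4a orphan receptors, Nr4a1 had 6460 and 5439 at 3 h, against 12354 and 12156 at 1 h (-1.06 ± 0.14). Nr4a2 had 9360 and 9771 at 3 h, against 8839 and 7806 at 1 h, and did not pass (0.18 ± 0.10, adjusted p 0.233). Nr4a3 had a change of 0.05 ± 0.08 (adjusted p 0.786). The 2 members that rose were Klf9, with 7475 and 7282 at 3 h, against 4044 and 3840 at 1 h, and Csrnp1, at 1.43 ± 0.17.

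Corepressors and mRNA decay factors gave 4 lower (30.8%) and 1 higher (7.69%, near the 7.33% of all tested genes) of 13 tested. With the replicate block 6 were lower and 4 higher. Btg2, which recruits the CCR4-NOT deadenylase, had 1917 and 2165 at 3 h, against 5387 and 5752 at 1 h (-1.45 ± 0.21, adjusted p 0.00036). Its relative Tob1 had 3586 and 3366 at 3 h, against 7285 and 7130 at 1 h (-1.06 ± 0.13). Nab1, a corepressor that binds Egr proteins, went the other way, with 4448 and 4073 at 3 h, against 2457 and 2307 at 1 h (0.86 ± 0.09).

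The MAP kinase feedback inhibitors gave 9 higher and 3 lower of 16, with a median of 0.50, and their phosphatases parted by gene. Dusp1, an early phosphatase of p38, JNK and ERK, had 3527 and 3422 at 3 h, against 6709 and 7450 at 1 h (-1.04 ± 0.09, adjusted p 7.61e-06). Dusp5 and Dusp6, which act on ERK, fell by 0.59 and 0.56. Dusp4, a nuclear phosphatase, had 4269 and 4244 at 3 h, against 1818 and 1845 at 1 h (1.25 ± 0.10). Dusp16, which acts on JNK and p38, had 1371 and 1057 at 3 h, against 367 and 363 at 1 h (1.75 ± 0.16). Spry1, Spry2, Spry4, Spred1 and Spred2, which restrain receptor tyrosine kinase signalling to ERK, were all called higher, by 0.29 to 0.97. Errfi1, an inhibitor of EGF receptors, rose by 0.57 ± 0.11.

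Promoters of 6 genes that moved at this step are shown because each holds a match to a motif of an activity-regulated factor; the genes were chosen after their values were seen. Each window is the 200 bases before an annotated start in RefSeq (GRCm38.p6). It is written 5′ to 3′ on the gene's strand, with matches in capitals. For a gene with several annotated starts, the first one listed with a match is shown. CRE is TGACGTCA, AP-1 is TGANTCA, and the CArG box bound by SRF is named only.
Pcsk1 (higher at 3 h, chr13:75089657-75089856, plus strand, CRE 78 bases before the start): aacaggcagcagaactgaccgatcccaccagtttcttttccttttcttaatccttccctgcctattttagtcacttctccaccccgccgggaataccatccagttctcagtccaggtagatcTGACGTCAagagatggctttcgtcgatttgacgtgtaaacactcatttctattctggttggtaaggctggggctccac
Serpinb2 (higher, chr1:107511223-107511422, plus strand, AP-1 94 bases before the start): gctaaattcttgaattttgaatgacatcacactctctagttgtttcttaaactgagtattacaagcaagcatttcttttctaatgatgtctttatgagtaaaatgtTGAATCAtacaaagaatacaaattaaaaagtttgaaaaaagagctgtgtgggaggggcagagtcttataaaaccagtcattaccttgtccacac
Emp1 (higher, chr6:135362731-135362930, plus strand, AP-1 145 and 25 bases before the start): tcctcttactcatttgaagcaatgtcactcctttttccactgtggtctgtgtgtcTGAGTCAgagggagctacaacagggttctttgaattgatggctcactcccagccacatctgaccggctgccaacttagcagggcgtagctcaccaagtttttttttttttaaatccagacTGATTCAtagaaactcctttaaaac
Dusp1 (lower, chr17:26508473-26508672, minus strand, CRE 143 bases before the start): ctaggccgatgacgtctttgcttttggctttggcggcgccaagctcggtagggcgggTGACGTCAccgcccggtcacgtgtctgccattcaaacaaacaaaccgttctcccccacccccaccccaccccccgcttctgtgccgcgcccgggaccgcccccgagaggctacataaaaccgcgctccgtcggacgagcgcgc
Btg2 (lower, chr1:134079156-134079355, minus strand, CRE 166 bases before the start): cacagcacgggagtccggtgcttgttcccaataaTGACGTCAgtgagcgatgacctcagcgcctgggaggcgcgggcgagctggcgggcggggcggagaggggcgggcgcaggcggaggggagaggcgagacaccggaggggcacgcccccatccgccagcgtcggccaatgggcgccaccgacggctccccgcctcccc
Egr2 (lower, chr10:67537366-67537565, plus strand, CArG box 72 bases before the start): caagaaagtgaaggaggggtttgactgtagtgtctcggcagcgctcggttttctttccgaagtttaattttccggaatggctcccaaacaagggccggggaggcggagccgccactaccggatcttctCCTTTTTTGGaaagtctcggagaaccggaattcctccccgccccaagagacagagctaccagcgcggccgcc

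Motifs were then counted in 300-base windows, from 250 bases before to 50 after each start, on both strands, over genes with a RefSeq promoter entry. A gene was counted once, and held a motif if any of its promoter entries did. Genes with more entries can therefore hold a motif more often, and the number of entries was not compared between sets. Shares are descriptions with exact binomial intervals that cover counting error only, and a match is not shown to be a site. Of the 133 genes at least 2-fold higher, 9.77% held CRE (95% interval 5.31 to 16.1). The share was 1.9% of the 210 genes at least 2-fold lower (0.521 to 4.8) and 3.36% of all 11215 genes. AP-1 was in 11.3% of the higher set (6.45 to 17.9), 8.1% of the lower set (4.79 to 12.6) and 6.23% of all; over all called higher genes its share was 6.25%. Both groups of early genes held CRE often, in 23.1% of the 26 early genes that were higher (95% interval 8.97 to 43.6). The share was 22.7% of 22 for those that were lower (7.82 to 45.4). The shorter core TGACG, which every CRE contains, was in 84.6% of early higher and 77.3% of early lower genes, against 34.0% of all 11215 genes. EGR motifs (GCGTGGGCG or GCGGGGGCG) were in 12% of the higher set (7.04 to 18.8) and 5.71% of the lower set (2.99 to 9.77). Both intervals include the 7.51% of all. The CArG box was in 3.01% (0.825 to 7.52) and 1.9% (0.521 to 4.8), against 1.55% of all. CArG boxes were in 0 of the 26 early higher genes, which allows a share of up to 13.2% by the exact 95% interval. They were in 13.6% of the 22 early lower genes (95% interval 2.91 to 34.9). TATAAA was in 15.8% of the higher and 12.4% of the lower set, against 9.59% of all, and the NBRE (AAAGGTCA) in 0.752% and 1.43%, against 1.09%.

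Secreted late effectors gave 8 higher and 0 lower of 15 tested, with a median of 0.82, and 12 were higher with the replicate block. Vgf, a secreted neuropeptide precursor, had 6430 and 6819 at 3 h, against 3696 and 3476 at 1 h (0.87 ± 0.06, adjusted p 2.36e-06). Scg2, a granin of dense-core vesicles, had 10710 and 10559 at 3 h, against 7214 and 6722 at 1 h. Igf1, Tgfb2 and Pdgfc, growth factors, rose by 0.56 ± 0.14, 0.82 ± 0.26 and 1.27 ± 0.10. Inhba, a subunit of activin, had 3216 and 1813 at 3 h, against 1401 and 659 at 1 h. Replicate 1 was the higher at both times, and the 3 h arrays did not overlap the 1 h arrays. Inhba missed the test (1.37 ± 0.64, adjusted p 0.167) and passed it with the replicate block (adjusted p 7.98e-06).

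Neuropeptide precursors and receptors gave 7 higher and 0 lower of 15, with a median of 0.42. In both of these lists limma also gave 0 lower at an unadjusted p under 0.05. Adcyap1, which encodes PACAP, had 1326 and 1215 at 3 h, against 484 and 504 at 1 h (1.42 ± 0.19, adjusted p 0.000209). Cartpt had 186 and 281 at 3 h, against 61.9 and 91.3 at 1 h (1.43 ± 0.34, adjusted p 0.00967), and Tac1, which encodes substance P, rose by 1.30 ± 0.34. Penk and Cort also rose, by 0.77 ± 0.24 and 0.83 ± 0.19. Crh, the stress hormone gene, had 138 and 374 at 3 h, against 66.1 and 123 at 1 h, with replicate 2 the higher at both times. It missed the test (1.21 ± 0.55, adjusted p 0.155) and passed it with the replicate block (adjusted p 0.000121). Sst, a marker of an interneuron class as well as a peptide, rose by 0.31 ± 0.07, and Sstr2, its receptor, by 1.12 ± 0.09. Npy did not pass (0.10 ± 0.09, adjusted p 0.52).

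Synaptic plasticity effectors gave 5 higher (33.3%, against 7.33% of all tested genes) and 2 lower (13.3%, near the 13.9% of all) of 15. Nrn1, which encodes the neurite-promoting protein neuritin, had 3759 and 3559 at 3 h, against 1460 and 1477 at 1 h (1.35 ± 0.12, adjusted p 9.62e-06). Grasp, a scaffold at synapses, had 4268 and 3864 at 3 h, against 1642 and 1377 at 1 h (1.47 ± 0.09). Pcdh8, a protocadherin, and Rheb, a small GTPase upstream of mTORC1, rose by 0.44 ± 0.04 and 0.36 ± 0.03 with non-overlapping arrays. Plk2, a kinase that scales synapses down, fell by 0.27. Homer1, a scaffold with a short activity-induced form and long constitutive forms, was read by 6 probe sets, of which 3 were called higher and 3 were not called. The set that stood for the gene, by a mean log2 level over the 16 arrays of 11.51, had 2750 and 2510 at 3 h, against 2505 and 2471 at 1 h (0.09, adjusted p 0.652). The next, at a mean of 11.44, had 10591 and 10650 at 3 h, against 3314 and 2162 at 1 h (1.99, adjusted p 1.93e-05 over all probe sets). The platform table does not say which form each probe set reads.

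Arpp21, a gene for an RNA-binding protein, was also read differently by its probe sets. The one that stood for the gene had 581 and 628 at 3 h, against 2909 and 3428 at 1 h (-2.31 ± 0.10, adjusted p 1.81e-07). A pair of others rose, one with 2278 and 3084 at 3 h, against 558 and 616 at 1 h (2.22) and one by 2.27, and the remaining 2 were not called. Arpp21 is therefore listed among the falls only by the probe set rule, and 1 of the 30 genes named by size parted in this way.

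Among the potassium channel genes, 5 were higher and 1 lower of 16 (6 higher and 4 lower with the block). Kcna1, a low-threshold voltage-gated channel, had 1921 and 1952 at 3 h, against 327 and 525 at 1 h (2.25 ± 0.29, adjusted p 0.00017). Kcna4, which gives a rapidly inactivating current, had 833 and 959 at 3 h, against 219 and 295 at 1 h (1.82 ± 0.18). Kcnj3 and Kcnj4, inward rectifiers, rose by 1.16 ± 0.20 and 0.60 ± 0.16, and Kcnf1 by 0.87 ± 0.08. Kcnc2 fell by 0.41. Ionotropic transmitter receptors gave 0 of 13 in either direction by limma, 5 lower at an unadjusted p under 0.05 and 7 lower with the block, with changes between -0.28 and 0.14.

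Signalling regulators of cAMP, calcium and G proteins gave 7 higher and 1 lower of 20 (8 higher and 3 lower with the block). Rasgrp1, a calcium-responsive activator of Ras, had 754 and 736 at 3 h, against 340 and 383 at 1 h (1.10 ± 0.19). Gpr3, a constitutively active receptor that raises cAMP, had 238 and 332 at 3 h, against 87.5 and 107 at 1 h (1.42 ± 0.29). Rrad and Rem2, small GTPases that restrain calcium channels, rose by 1.72 ± 0.45 and 0.79 ± 0.14. Pde4b, which degrades cAMP, fell by 0.53 ± 0.09.

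Extracellular matrix and protease genes gave 5 higher and 1 lower of 12. Acan, the core of perineuronal nets, had 129 and 120 at 3 h, against 42.1 and 39.0 at 1 h (1.30 ± 0.18, adjusted p 0.000295). The matricellular genes Ccn2 and Ccn1 parted: Ccn2 had 1013 and 1001 at 3 h, against 563 and 418 at 1 h, while Ccn1 had 1372 and 1402 at 3 h, against 3011 and 3693 at 1 h (-1.23 ± 0.12).

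Growth arrest and survival genes gave 5 higher and 4 lower of 15. Gadd45a and Gadd45b, stress sensors of the same family, moved apart: Gadd45a had 453 and 431 at 3 h, against 145 and 154 at 1 h (1.53 ± 0.17). Gadd45b had 610 and 727 at 3 h, against 2198 and 2348 at 1 h (-1.68 ± 0.15, adjusted p 8.92e-06). Cdkn1a, the cell cycle inhibitor p21, rose by 0.88 ± 0.09. Mcl1 and Bcl2l1, which protect against apoptosis, fell by 0.33 and 0.31, and Bbc3, which promotes it, fell by 0.36.

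Genes of the unfolded protein and integrated stress responses gave 6 higher and 0 lower of 17 (7 higher and 3 lower with the block). Trib3, a pseudokinase, had 340 and 239 at 3 h, against 57.6 and 96.7 at 1 h (1.74 ± 0.25, adjusted p 0.000352). Sesn2, a regulator of mTORC1, had 3636 and 2523 at 3 h, against 1445 and 1310 at 1 h. Ddit3 and Asns rose by 0.67 ± 0.13 and 0.39 ± 0.08, while Atf4 and Hspa5 did not pass (0.24 ± 0.11 and 0.08 ± 0.08). NF-kB factors and inhibitors gave 4 higher and 1 lower of 10. Tnfaip3, an inhibitor of the pathway, had 356 and 322 at 3 h, against 202 and 225 at 1 h (0.70 ± 0.12), and Nfkbid, an early nuclear inhibitor, had 332 and 323 at 3 h, against 646 and 614 at 1 h (-0.81 ± 0.16).

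In the clock list 4 of 14 were higher and 0 lower (1 lower with the block). Per2 had 459 and 574 at 3 h, against 151 and 235 at 1 h (1.45 ± 0.19), and Per1, Cry1 and Cry2 rose by 0.45 to 0.75. Slc2a1, the glucose transporter GLUT1, had 1435 and 1602 at 3 h, against 560 and 494 at 1 h (1.58 ± 0.16). Slc2a3, the neuronal GLUT3, rose by 0.48 ± 0.09, and no other member of the 14 glucose uptake and glycolysis genes passed by limma; 4 more passed with the block. Cholesterol synthesis genes gave 2 higher (15.4%) and 1 lower (7.69%, under the 13.9% of all tested genes) of 13 (2 and 3 with the block). Txnip with its arrestin-domain relatives gave 0 higher and 1 lower of 5 (0 and 3 with the block). Heat shock chaperones gave 2 higher (15.4%, against 7.33% of all tested genes) and 2 lower (15.4%, near the 13.9% of all) of 13. Hspa1a, an inducible chaperone, had 115 and 178 at 3 h, against 283 and 304 at 1 h (-0.90 ± 0.19), while Hspb3, a small heat shock protein, had 622 and 603 at 3 h, against 167 and 166 at 1 h (1.86 ± 0.13). Cytosolic ribosomal protein genes gave 0 of 40 in either direction by limma and 1 higher at an unadjusted p under 0.05, with changes from -0.07 to 0.31.

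**Figure D4:**
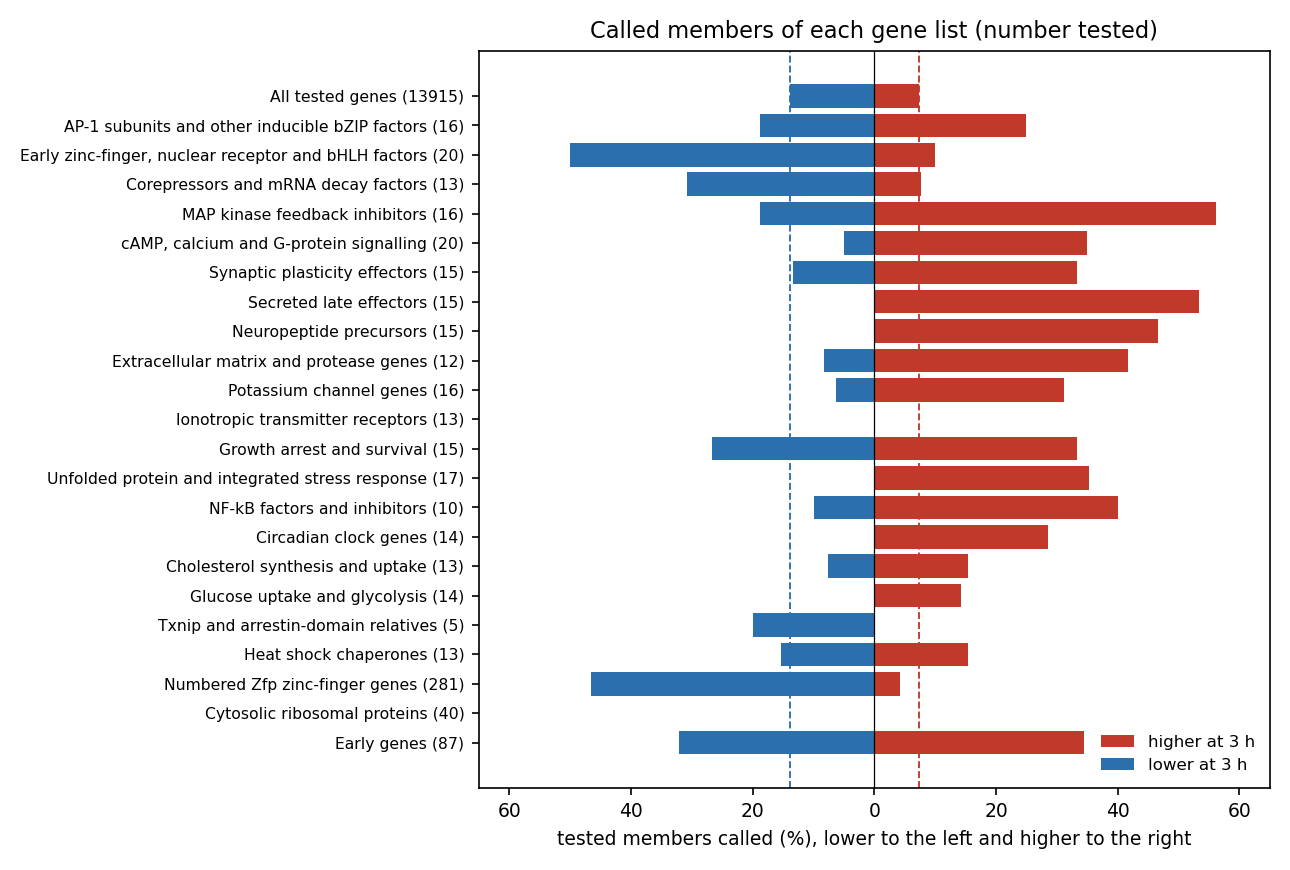
Percentage of tested members called lower (blue, left) and higher (red, right) at 3 h than at 1 h in control shRNA neurons, with the number tested after each list name; dashed lines mark the percentages over all 13915 tested genes, 13.9% lower and 7.33% higher. MAP kinase inhibitors (56.2%) and secreted late effectors (53.3%) have the longest red bars, and early zinc-finger factors (50%) and numbered Zfp genes (46.6%) the longest blue ones.

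Numbered Zfp genes, most of which encode zinc-finger proteins, were called lower far more often than higher. Of 281 tested, 131 (46.6%) were lower and 12 (4.27%) higher, with a median change of -0.34, and 38 were lower by at least 2-fold. Zfp759 had 40.8 and 45.4 at 3 h, against 234 and 228 at 1 h (-2.03 ± 0.17, adjusted p 7.92e-06). Zfp60 had 136 and 173 at 3 h, against 674 and 643 at 1 h (-1.91 ± 0.13). Zfp82 had 42.5 and 59.0 at 3 h, against 215 and 276 at 1 h. Of the genes that rose, Zfp516 had 549 and 564 at 3 h, against 164 and 173 at 1 h (1.71 ± 0.11). Many of these genes are near copies of one another, so a probe set may take up related transcripts. Leaving out probe sets whose names end in _s_at or _x_at, 123 of 261 (47.1%) were lower.

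Of the 251 genes at least 2-fold lower, 12 (4.78%) were early genes, against 0.625% of all tested genes, and the other 239 were not. In c-Fos shRNA neurons, whose arrays are not part of the comparison, the median change of the 251 between 1 h and 0 h was -0.21. There 36 of the 251 (14.3%) were called lower at 1 h than at 0 h, against 1.4% of all tested genes, and 12 (4.78%) were called higher, against 1.96%. The 170 genes at least 2-fold higher included 13 early genes (7.65%, against 0.625% of all tested genes), and 27 (15.9%) were called higher at 1 h than at 0 h in c-Fos shRNA neurons, against 1.96% of all tested genes. Genes lower at 1 h than at 0 h by at least 2-fold in c-Fos shRNA neurons numbered 31, 0.223% of those tested. At the 3 h against 1 h step in control neurons 13 of them (41.9%) were lower and 2 (6.45%) higher. Over all tested genes the shares were 13.9% and 7.33%. With the block 16 were lower and 6 higher. Calls at both steps rest on the same spread for each gene, so the shares in this paragraph may be raised above those of all tested genes.

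The same step was read in c-Fos shRNA neurons, with 2 arrays at 3 h and 2 at 1 h, none of them shared. Both arms were normalized together and fitted in one model with one spread for each gene. Same-numbered arrays also varied together across the arms, so the 2 lists of calls are not independent and their overlap may be raised by this. There 967 genes (6.95%) were higher and 1720 (12.4%) lower. Of the genes higher at the step, 652 were called higher in both, which is 67.4% of the c-Fos shRNA list and 63.9% of the control list. Of the lower genes, 1287 were called lower in both, 74.8% of the c-Fos shRNA list and 66.8% of the control list. Among the 170 and 251 control genes past 2-fold, 136 and 229 were called the same way in c-Fos shRNA neurons. Their median changes were 1.03 and -1.06 in c-Fos shRNA neurons, against 1.37 and -1.23 in control neurons; the control medians come from the arrays that chose the genes.

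A test of the difference between the arms, c-Fos shRNA minus control, called 7 genes of 13915 (0.0503%), and 289 (2.08%) with the replicate block. Fitted to only the 8 arrays at 1 and 3 h it called 0, with 780 of 13915 at an unadjusted p under 0.05, against 880 with all arrays. A fraction near 0.05 of all genes would pass that threshold if no gene differed, so these counts do not count genes that differ. Fos, the gene the shRNA targets, was among the 7 genes called with all arrays, at -0.99 ± 0.14 (adjusted p 0.0319). Boc, a co-receptor for Hedgehog ligands, had 247 and 274 at 3 h and 208 and 215 at 1 h in c-Fos shRNA neurons, against 464 and 494 at 3 h and 135 and 163 at 1 h in control neurons. Its difference was -1.34 ± 0.15 (adjusted p 0.0123). Pdgfc had 991 and 880 at 3 h and 879 and 962 at 1 h in c-Fos shRNA neurons, against 1394 and 1220 at 3 h and 537 and 601 at 1 h in control neurons (-1.18 ± 0.14, adjusted p 0.0123). In both genes the control arrays at 1 h lay below the c-Fos shRNA arrays at 1 h. Frmd6, a FERM-domain gene of the Hippo pathway, rose less with c-Fos shRNA (-1.16 ± 0.16). Pikfyve, a lipid kinase, had 1266 and 1253 at 3 h and 1069 and 947 at 1 h in c-Fos shRNA neurons, against 773 and 858 at 3 h and 1278 and 1311 at 1 h in control neurons (0.95 ± 0.13). Wapl, a cohesin release factor, and Fbxo28 had differences of 0.76 ± 0.10 and 0.67 ± 0.10. At the control step the probe sets of Fbxo28 did not move together: the one that stood for it had a change of -0.29, and the others had -0.28 and 0.62. Those of Wapl parted as well. The one that stood for Wapl, at a mean log2 level of 10.06, was not called (-0.1). Another, at a mean of 9.96, was called higher (0.63). Emp1 had 66.1 and 76.7 at 3 h and 34.5 and 65.8 at 1 h in c-Fos shRNA neurons. Its difference of -1.58 ± 0.30 missed the test (adjusted p 0.0824, and 0.00648 with the block). Emp1 was picked out after its values were seen, and other genes that missed the test are not listed. Whether the AP-1 matches shown above bear on any of these differences was not tested.

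**Figure D5:**
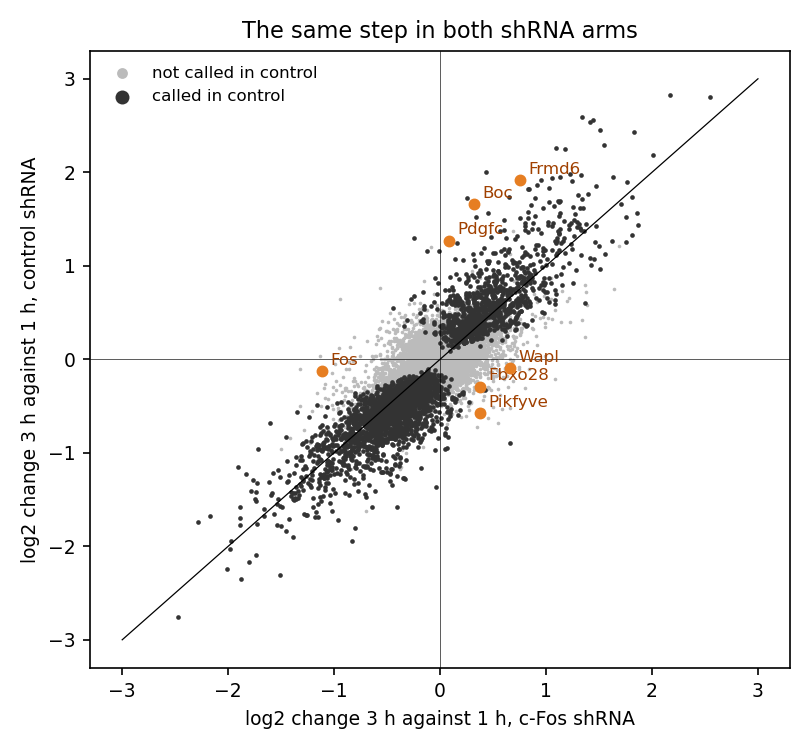
Log2 change between 3 h and 1 h of KCl in c-Fos shRNA neurons (horizontal axis) and control shRNA neurons (vertical axis), 1 point a gene; the diagonal marks equal changes. Black genes were called in control neurons, and the 7 orange genes were called for a difference between the arms, with Boc at -1.34 and Pikfyve at 0.95.

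The 6 h against 3 h comparison uses the same 3 h arrays, so its values are given for single genes only. Between 3 and 6 h Bdnf had a change of 0.70 (adjusted p 0.0546), Pcsk1 one of 1.01 (adjusted p 0.0008) and Acan one of 1.86, while Atf3 had one of -0.81 (adjusted p 0.0114). Among the fallers, Gtf2e1 had a change of 0.94 (adjusted p 0.00108) and Zkscan4 one of 1.16 between 3 and 6 h, while Zfp759 had one of -0.15 (adjusted p 0.64) and Zmat1 one of -1.07.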

How the data were processed

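The deposited table holds 1 linear intensity for each probe set and array, made by the authors with Affymetrix processing, per the labels; which software summarized and scaled them is not given in the sources used here. Of 45101 probe sets, 64 were controls; the platform table named 1 gene for 34945, several for 932 and none for 9160, and 34741 matched a RefSeq gene. Array medians ran from 104.75 to 118.56 (13.2% apart), so log2(intensity + 16) was quantile normalized. A gene was its probe set with the highest mean, and genes were kept where that mean over all 16 arrays exceeded log2 5.786, the 30th percentile of all probe sets that are not controls, leaving 13915 of 18193. limma 3.58.1 in R 4.3.3 fitted the means of 8 groups over 16 arrays (lmFit, eBayes with trend, 8 residual degrees of freedom). The code was tested on simulated data. Detection calls were not used. With 2 arrays a group, their number limits how precise a change can be.

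The labels number the replicates as biological replicates. Deviations of same-numbered arrays correlated in all 28 pairs of groups (0.36 to 0.60), all over 0.1, so the numbers pair the arrays; the block is an alternative. Genes named are Fos, the 15 largest rises and 15 largest falls called with arrays that do not overlap, called differences between arms, and list members. The genes, lists and comparison were chosen with earlier results of these data known. The alternatives were other pseudocounts, normalizations, filters, probe set rules, array subsets and leaving out each array; the Zfp probe set alternative was added after the values were seen.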

Additional observations from a re-analysis of the deposited data

Results flagged for a closer look

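The 7 genes below were picked out because the test of the difference between shRNA arms, c-Fos shRNA minus control, called their 3 h against 1 h changes unequal. The differences were -0.99 for Fos, which the shRNA targets, -1.34 for Boc, -1.18 for Pdgfc, -1.16 for Frmd6, 0.67 for Fbxo28, 0.76 for Wapl and 0.95 for Pikfyve. With only 8 arrays at 1 and 3 h in the fit, 0 genes were called by limma, and 780 of 13915 passed an unadjusted p under 0.05. A fraction near 0.05 would pass that threshold if no gene differed.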

How the results depend on the processing

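Blocking on the replicate number gave 1789 higher genes, 3048 lower genes and 289 that differed between arms. The block also moved list counts: corepressors to 4 higher, G-protein signalling to 3 lower, potassium channels to 4 lower, ionotropic receptors to 7 lower, the unfolded protein list to 3 lower, clock genes to 1 lower, cholesterol genes to 3 lower, glycolysis to 6 higher, Txnip relatives to 3 lower, astrocyte markers to 1 lower, oligodendrocyte markers to 1 higher, progenitor markers to 4 higher, excitatory markers to 2 higher and 1 lower, and early falls to 6 higher. Of 431 named genes and list members, 162 were called. That count leaves out numbered Zfp genes that were not among the largest changes, arm differences or early genes. The block kept all of the 162 calls and added 64, Inhba and Crh among them. In the numbered Zfp list it moved the counts from 131 to 157 lower and from 12 to 17 higher. Leaving out each array gave 674 to 716 higher genes and 1139 to 1585 lower genes, with 674 and 1200 without control 3 h replicate 1 and 1139 without control 1 h replicate 2. Differences between arms ran from 0 to 6 genes when an array was left out, 0 with only the 8 arrays at 1 and 3 h and 2 with the mean over probe sets. At a pseudocount of 64, 157 genes were at least 2-fold lower, which shrinks dim changes by construction. Over all called genes the AP-1 share was 6.25% (higher) and the TATA box share 8.15% (lower). With the mean over all probe sets Arpp21 changed by 0.58 and Fbxo28 by 0.02, turning their signs. The causes of the other shifts were not tested.
Over these alternatives the 162 called genes and Fos gave 2241 values with the same call, 192 that lost it and 2 that turned. Dim genes are the least certain.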
